A study of Homo sapiens with 18 samples.

Results

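Ribosomal RNA is made from a long 45S precursor, and 10 of the 20 entries of the ribosomal RNA table of this study belong to that precursor or to the small 5.8S rRNA cut out of it. They were taken by name: the 5 entries whose names start with RNA45SN and the 5 whose names start with RNA5-8SN, each numbered N1 to N5 after the copy of the gene. The other 10 entries are 5 for 18S, 4 for 28S and 1 for 5S rRNA, and the 2 tables of the study hold 47041 rows in all. RNA came from DLD1, a human cell line established from a colorectal adenocarcinoma. All cells had received lentivirus and were selected with 10 µg/ml puromycin to give stable lines, so the controls share both treatments. The control group, labelled WT, carried a control CRISPR guide (sgC), and the groups labelled ZNF692 KO carried guide 1 (sgZ1) or guide 3 (sgZ3) against ZNF692, a zinc-finger gene. Each group had 3 libraries labelled total RNA and counted over ribosomal RNA, used for the 10 entries, and 3 libraries labelled polyA RNA. Whether a line is a clone or a pool, and whether replicates were separate cultures, is not given in the labels. P-values therefore reflect the scatter of these libraries, which may be only technical.

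RNA polymerase I transcribes the 45S precursor in the nucleolus from repeated genes on the short arms of the acrocentric chromosomes. The transcript holds 18S, 5.8S and 28S rRNA in that order, set between an external spacer at each end (5′ETS and 3′ETS) and the internal spacers ITS1 and ITS2, which are removed by cleavage and trimming. The 18S rRNA goes to the small ribosomal subunit, whereas 5.8S pairs with 28S in the large subunit, and mature rRNAs far outnumber the short-lived precursor in a growing cell.

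In the RefSeq annotation of GRCh38.p14 all 5 copies lie on the plus strand. Copy N1 is at chr21:8433222-8446572, N2 at chr21:8205988-8219302 and N3 at chr21:8389035-8402343, while N4 is at 122273 to 135645 of the scaffold KI270733.1 and N5 at 105424 to 118780 of the scaffold GL000220.1. The 45S entries are 13309 to 13373 bases long. Within them the 5′ETS takes 3631 to 3658 bases, ITS1 1071 to 1077, ITS2 1160 to 1171 and the 3′ETS 361 to 365. The 18S segment has 1869 bases, the 28S segment 5054 to 5077, and the 5.8S segment 157 in 4 copies and 156 in N4. Mature segments thus make up 53.11% to 53.2% of a 45S entry and the 5.8S segment 1.167% to 1.18%, so the same bases occur in a 45S entry and in a mature entry. A count on a 45S entry can come from precursor or from mature rRNA, and the table does not separate them.

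**Figure D1:**
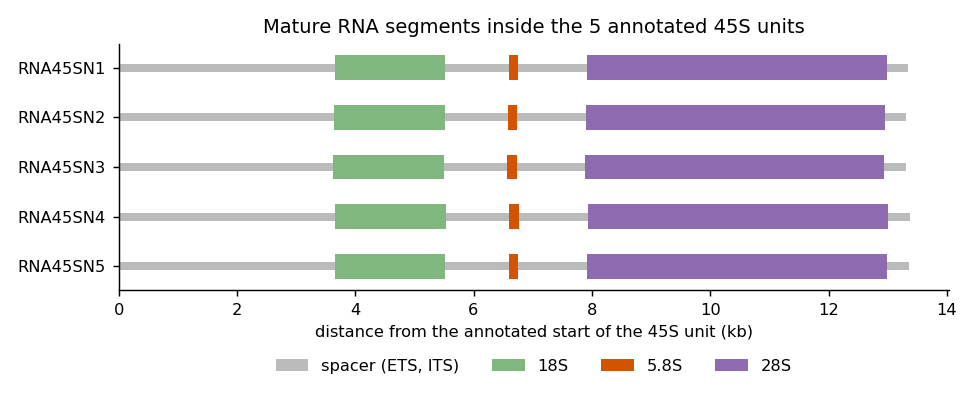
Map of the 5 annotated 45S units, drawn to scale with the distance in kilobases from the start of the 45S entry on the x axis and the 5 entries on the y axis; coloured blocks are the 18S, 5.8S and 28S segments and thin grey bars the spacers. The 5.8S segment starts 6571 to 6604 bases into the unit and is the shortest of the 3 mature segments in every copy.

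The 5.8S sequence is shown because identical copies limit what the separate 5.8S entries can tell apart. GENCODE 29 transcripts gave a sequence for 3 of the 5 copies, each of 153 bases: RNA5-8SN1 at chr21:8439823-8439975, RNA5-8SN2 at chr21:8212572-8212724 and RNA5-8SN3 at chr21:8395607-8395759 (GRCh38, plus strand). The 3 copies held 1 distinct sequence, with a GC content of 57.52%:
RNA5-8SN1, RNA5-8SN2 and RNA5-8SN3: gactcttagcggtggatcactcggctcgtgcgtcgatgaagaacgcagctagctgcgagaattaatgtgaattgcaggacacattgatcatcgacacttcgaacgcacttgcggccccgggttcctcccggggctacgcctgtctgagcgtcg
No base in this run distinguishes the 3 copies, so a read inside it could come from any of them. The sequences of the remaining copies were not analysed here.

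Total estimated counts of the ribosomal RNA libraries ran from 48581516.0 to 74939039.1. Replicates of a group differed by 505 times or more the chi-square expected from counting alone (per degree of freedom), so no library within a group appeared to be a copy of another. In the poly(A) libraries ZNF692 mRNA was 6.51 ± 0.446 CPM (counts per 1000000) in sgC, 10.3 ± 1.01 in sgZ1 and 7.43 ± 0.988 in sgZ3 (SD, n = 3). It was not lower under either guide. In sgZ1 its log2 fold change was 0.58 to 0.72 over fits that left out 1 library (edgeR adjusted p = 0.00135 to 0.0287). In sgZ3 it was 0.12 to 0.30 (edgeR adjusted p = 0.102 to 0.612). A frameshift need not lower an mRNA, so these levels do not check the labels. In the same libraries 8 of 9 epithelial markers exceeded 1 CPM throughout, the exception being CDX1. The summed level of 10 mesenchymal markers was 11.5 to 13.0 CPM in sgC, 11.7 to 113 in sgZ1 and 8.93 to 116 in sgZ3. Both high values belonged to poly(A) libraries sgZ1 replicate 2 and sgZ3 replicate 3, led by SPARC (64.2 and 66.7 CPM) and VIM (22.9 and 21.1), with DCN at 0 in both and LUM at 0 in the latter. The labels do not say whether the ribosomal RNA libraries of the same numbers came from the same RNA.

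The 45S entries together took about the same part of every library. Their share of all ribosomal RNA counts was 75.06%, 75.35% and 74.89% in sgC (replicates 1, 2 and 3), 74.61%, 74.51% and 74.55% in sgZ1, and 75.23%, 75.31% and 75.07% in sgZ3. All 3 sgZ1 libraries lay below the other 6, while sgZ3 and sgC overlapped. Group means were 75.10% ± 0.230, 74.56% ± 0.0481 and 75.20% ± 0.120 (SD, n = 3). On the log2 scale sgZ1 differed from sgC by -0.010, sgZ3 from sgC by 0.0020 and sgZ3 from sgZ1 by 0.012. From the lowest to the highest library the 45S share changed 1.01-fold.

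The sum of the 5.8S entries behaved quite differently. The 5.8S share was 0.417%, 0.178% and 0.230% in sgC, 0.139%, 0.547% and 0.276% in sgZ1, and 0.134%, 0.109% and 0.164% in sgZ3 (replicates 1, 2 and 3). The highest library, sgZ1 replicate 2, held 5.04 times the share of the lowest, sgZ3 replicate 2. All 3 sgZ3 libraries lay below all 3 sgC libraries, whereas the sgZ1 libraries reached from below the lowest sgC value to above the highest. Means were 0.275% ± 0.126 in sgC, 0.321% ± 0.208 in sgZ1 and 0.136% ± 0.0277 in sgZ3 (SD, n = 3). Within a group the highest and lowest libraries differed 2.35-fold in sgC, 3.93-fold in sgZ1 and 1.51-fold in sgZ3. The mean log2 difference from sgC was 0.10 for sgZ1 and -0.94 for sgZ3, and sgZ3 differed from sgZ1 by -1.05. Without sgZ1 replicate 2 the first of these was -0.39, and without sgC replicate 1 the second was -0.60. Without the libraries numbered sgZ1 replicate 2 and sgZ3 replicate 3 they were -0.39 and -1.09. The difference between guides was -0.55 without sgZ1 replicate 2 and -0.70 without both libraries.

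**Figure D2:**
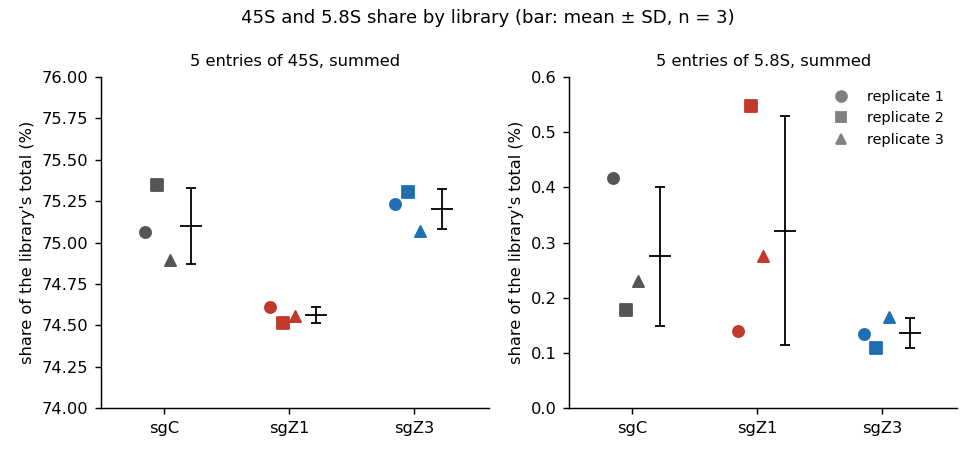
Summed share of the 5 entries for 45S (left) and the 5 for 5.8S (right) in percent of the library's total (y axes) by group (x axis); circles, squares and triangles are replicates 1, 2 and 3, bars are the mean ± SD of 3 libraries, and the left y axis does not start at 0. The 45S shares span 74.51% to 75.35%, with sgZ1 below the other groups, and the 5.8S shares span 0.109% to 0.547%, with sgZ3 below sgC.

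Spread over the 9 libraries set the RNA classes apart. The coefficient of variation of the share was 0.437% for 45S, 1.89% for 28S, 7.02% for 18S and 60.7% for 5.8S. Around the group means it was 0.203%, 1.80%, 7.98% and 57.8% in the same order, so the spread of 5.8S was present among replicates. Counting error alone would give 0.0155% for 45S and 0.267% for 5.8S, far below both observed values. PCR reads without molecular identifiers are not independent molecules, and these last figures cover counting error only. With at least 74.51% of all counts on the 45S entries, the 45S share can rise little in proportion, because the shares of a library add up to a fixed total.

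Ratios within a library do not depend on that total. The 45S entries had 3.06, 3.08 and 3.01 counts per count of 18S and 28S together in sgC, 2.95, 2.99 and 2.96 in sgZ1 and 3.05, 3.06 and 3.03 in sgZ3. Again the sgZ1 libraries lay below the other 6, but this ratio is not separate evidence. The 18S and 28S entries hold nearly all counts that are not on 45S entries, so the ratio almost restates the 45S share. Against 28S alone the ratio ran from 3.44 to 3.71 over the 9 libraries, and against 18S alone from 18.01 to 22.42, and in both the sgZ1 and sgC ranges overlapped. The 5.8S entries had 19.71, 8.76 and 11.01 counts per 1000 counts of 28S, its partner in the large subunit, in sgC. The same measure was 6.43, 26.3 and 12.9 in sgZ1 and 6.41, 5.23 and 7.79 in sgZ3, so the order of libraries followed that of the 5.8S share with sgZ3 below sgC. Per 1000 counts of 18S the sgZ3 and sgC libraries overlapped.

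Levels between RNAs were compared per length, as counts per kilobase of annotated entry per 1000000 ribosomal RNA counts. On this scale the level was 55854 to 56479 for 45S, 40071 to 42809 for 28S, 17916 to 22368 for 18S and 6932 to 34903 for 5.8S. The 45S entries were highest and 28S second in each library, while 5.8S lay below 18S in some libraries and above it in others. Mature 18S, 5.8S and 28S occur in equal numbers in complete ribosomes, and the levels per length were not equal.

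No 45S or 5.8S entry passed the threshold in any comparison. Each entry's rounded estimated counts were tested with edgeR's quasi-likelihood test, with the total of the 20 entries as library size and Benjamini-Hochberg adjustment over all 20, called at an adjusted p under 0.05. With the mean effect of the 2 guides set against sgC, 0 of the 10 entries were called, against 0.0% of all 20 entries. The same counts, 0 of 10 and 0.0%, were found for sgZ1 against sgC, for sgZ3 against sgC and for sgZ3 against sgZ1. At an unadjusted p under 0.05 edgeR gave 0, 1, 0 and 2 of the 10 in the 4 comparisons. Among the other entries it gave 0, 1, 1 and 2 of the 4 for 28S and 0 for 18S and 5S. Such values were thus not particular to the 10 entries. DESeq2 and limma on log2 shares also called 0 of 10 in each comparison. At an unadjusted p under 0.05 DESeq2 gave 0, 0, 4 and 4 of the 10 and limma 0, 1, 0 and 2. For these 2 methods the count over all 20 entries is not given here. An exact two-sided permutation test of both guides against sgC called 0 of 10, with 0 at an unadjusted p under 0.05, and its smallest possible p is 0.0119. For 3 libraries against 3 an exact test cannot go below 0.10.

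RNA45SN5 and RNA45SN1 were the precursor entries in which sgZ1 did not overlap the other groups. For sgZ3 against sgC and for both guides the value farthest from 0 was that of RNA45SN3, at -0.023 and -0.024. The share of RNA45SN5 was 17.43%, 17.29% and 17.22% in sgC, 17.04%, 16.98% and 16.76% in sgZ1 and 17.34%, 17.46% and 17.42% in sgZ3. The sgZ1 values lay below those of both other groups without overlap. Its log2 fold change in sgZ1 against sgC was -0.033 (SE 0.013, 95% interval -0.064 to -0.0019, edgeR unadjusted p = 0.0403, adjusted p = 0.339). In sgZ3 against sgZ1 it was 0.041 (SE 0.013, edgeR adjusted p = 0.114).

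RNA45SN1 was 12.68%, 12.72% and 12.49% of the counts in sgC, 12.46%, 12.38% and 12.37% in sgZ1 and 12.77%, 12.96% and 12.69% in sgZ3. Here too sgZ1 was lowest without overlap. The log2 fold change was -0.026 in sgZ1 against sgC (SE 0.014, edgeR adjusted p = 0.447) and 0.046 in sgZ3 against sgZ1 (SE 0.014, 95% interval 0.012 to 0.081, edgeR adjusted p = 0.114). Entries whose groups did not overlap were thus 2 of 5 for 45S in sgZ1 against sgC, both lower, where 20.0% of all 20 entries did not overlap. In sgZ3 against sgZ1 they were the same 2 entries, both higher, beside 20.0% of all entries.

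The other 3 precursor entries overlapped between all groups. RNA45SN4, the largest, was 21.92%, 21.53% and 21.67% in sgC, 22.10%, 21.54% and 22.43% in sgZ1 and 22.06%, 21.73% and 21.77% in sgZ3. RNA45SN3 was 13.48%, 13.89% and 13.76% in sgC, 13.40%, 13.75% and 13.29% in sgZ1 and 13.40%, 13.47% and 13.61% in sgZ3. RNA45SN2, the smallest, was 9.55%, 9.92% and 9.75% in sgC, 9.61%, 9.87% and 9.70% in sgZ1 and 9.65%, 9.68% and 9.58% in sgZ3. Their log2 fold changes in the 3 pairwise comparisons lay between -0.025 (RNA45SN3 in sgZ1 against sgC) and 0.021 (RNA45SN4 in the same comparison). Over all 5 precursor entries and these comparisons the 95% intervals reached from -0.070 to 0.081, so changes of the share outside that range lay outside every interval.

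RNA5-8SN2 stands for the 4 abundant 5.8S entries, which moved together library by library. Its share was 0.103%, 0.0441% and 0.0569% in sgC, 0.0344%, 0.136% and 0.0685% in sgZ1 and 0.0332%, 0.0268% and 0.0405% in sgZ3. All sgZ3 values were below all sgC values, and sgZ1 overlapped both. The log2 fold change in sgZ3 against sgC was -1.02 (SE 0.54, 95% interval -2.31 to 0.26, edgeR unadjusted p = 0.101, adjusted p = 0.411). In sgZ1 against sgC it was 0.22 (SE 0.53, 95% interval -1.05 to 1.497, edgeR adjusted p = 0.867), and in sgZ3 against sgZ1 it was -1.25 (SE 0.54, 95% interval -2.54 to 0.047, edgeR adjusted p = 0.126).

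RNA5-8SN1, RNA5-8SN3 and RNA5-8SN5 gave nearly the same values as RNA5-8SN2. Their log2 fold changes in sgZ3 against sgC were -1.01, -1.02 and -1.02. In that comparison 4 of 5 entries for 5.8S did not overlap, all lower and all but RNA5-8SN4, where 25.0% of all 20 entries did not overlap. RNA5-8SN1, RNA5-8SN2 and RNA5-8SN3 hold the sequence printed above in common, so their values cannot be taken as independent of each other. The intervals include both no change and a fall of more than 2 on the log2 scale, and with 3 libraries a group a difference of the size seen was not separable from the spread between replicates. The median log2 fold change over all 20 entries was -0.030 for sgZ3 and 0.0076 for sgZ1 against sgC.

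**Figure D3:**
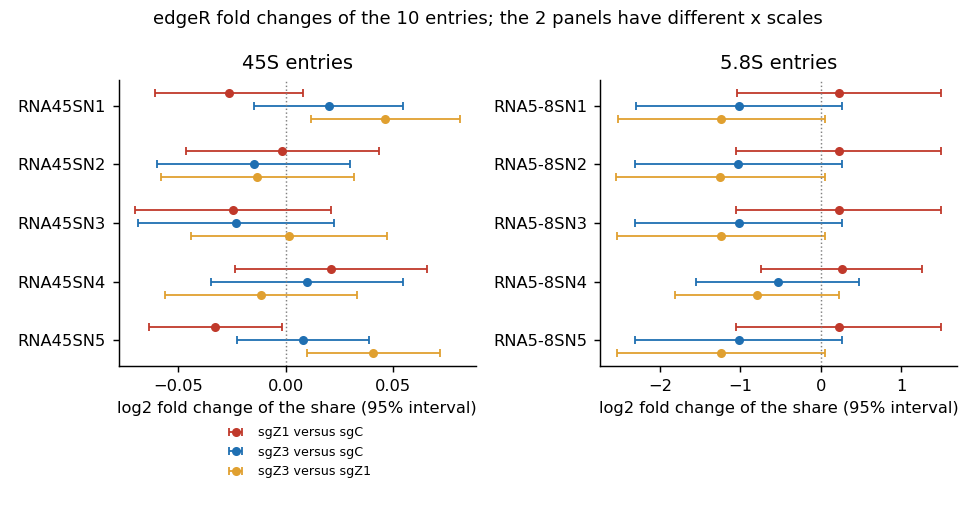
Log2 fold change of the share of each 45S entry (left) and 5.8S entry (right) with its 95% interval from edgeR, for sgZ1 against sgC, sgZ3 against sgC and sgZ3 against sgZ1; the x axes of the panels differ in scale. The 45S intervals stay between -0.070 and 0.081, and the 5.8S intervals reach from -2.54 to 1.498, all of the latter crossing 0.

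The division of the 45S counts among the 5 copies, and of the 5.8S counts among N1, N2, N3 and N5, varied little between libraries, and the order of the copies differed between RNA classes. Among the 45S entries the order was N4, N5, N3, N1 and N2 in 9 of 9 libraries, with means of 29.2%, 23.0%, 18.1%, 16.8% and 12.9% of the 45S counts. Across libraries the part of N4 ran from 28.6% to 30.1%, that of N5 from 22.5% to 23.2%, that of N3 from 17.8% to 18.4%, that of N1 from 16.6% to 17.2% and that of N2 from 12.7% to 13.2%. The coefficients of variation were 1.05% (N5) to 1.57% (N4). Neighbours in this order did not overlap over the 9 libraries.

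Among the 5.8S entries the order was N1, N5, N2, N3 and N4, also in 9 of 9 libraries. Means were 26.1%, 24.8%, 24.7% and 24.1% of the 5.8S counts for the first 4 and 0.166% for N4. The first 4 had coefficients of variation of 0.113% (N5) to 0.261% (N1), although the 5.8S share itself varied 5.04-fold, whereas that of N4 was 18.9%. Copy N4, which held the most 45S counts, thus held the fewest 5.8S counts. For 18S the commonest order was N2, N3, N4, N5 and N1, and for 28S, with no entry for N4 among the rows analysed here, it was N5, N1, N3 and N2, each in 8 of 9 libraries. The part of a copy varied more there for RNA28SN2 (9.84%), RNA18SN5 (7.65%), RNA18SN1 (7.57%), RNA28SN3 (3.78%), RNA28SN1 (3.34%) and RNA18SN4 (3.31%). It varied less than any 45S part for RNA18SN2 (0.551%) and RNA18SN3 (0.846%), and RNA28SN5 (1.42%) lay within the 45S range. A steady division was thus not particular to the 45S and 5.8S entries. Copy N2 held 46.9% of the 18S counts but 5.60% of the 28S counts and the least of the 45S counts. The copies of a locus are transcribed as units, and how the authors divided reads between near-identical copies is not given in the sources used here, so these percentages are not copy-specific expression.

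**Figure D4:**
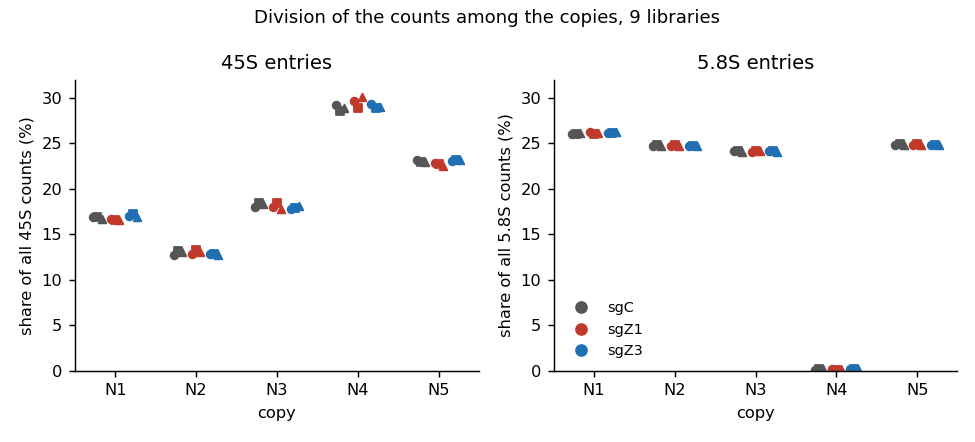
Division of the 45S counts (left) and the 5.8S counts (right) among the copies N1 to N5 (x axis), as the percent of the class's estimated counts (y axis); each point is a library, with colours for groups and circles, squares and triangles for replicates 1, 2 and 3. N4 is highest among the 45S entries and near 0 among the 5.8S entries, and the points of a copy lie close together over the 9 libraries.

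RNA5-8SN4 was the entry with the fewest counts of the 10. Its estimated counts were 421.3, 143.7 and 182.8 in sgC, 141.0, 383.6 and 222.5 in sgZ1 and 123.4, 129.3 and 172.1 in sgZ3. The median of the other 4 entries for 5.8S exceeded it 114.0- to 190.2-fold. It is also the copy whose annotated 5.8S segment has 156 bases, and its sequence was not analysed here. Its count varied 3.41-fold over the libraries, less than the 5.27-fold of RNA5-8SN2.

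As a percent of the 5.8S counts RNA5-8SN4 was 0.135%, 0.142% and 0.150% in sgC, 0.193%, 0.131% and 0.149% in sgZ1 and 0.189%, 0.217% and 0.192% in sgZ3. All sgZ3 values exceeded all sgC values, and sgZ1 overlapped both sgC and sgZ3. The part of a class also did not overlap between sgZ3 and sgC for RNA5-8SN2 (lower) and RNA45SN1 (higher). For 18S and 28S, 0 of 5 and 0 of 4 entries were without overlap in that comparison. In sgZ3 against sgZ1, 2 of the 4 for 28S were higher and 2 lower, and 1 of 5 for 18S was lower. For 45S 2 were higher and 1 lower, and for 5.8S there were 0. In sgZ1 against sgC, 1 entry for 28S was higher and 1 lower, and 1 for 45S was lower. Such a lack of overlap was thus not particular to the 45S and 5.8S entries. The library with the highest 5.8S share, sgZ1 replicate 2, had the lowest RNA5-8SN4 part, and the library with the lowest 5.8S share, sgZ3 replicate 2, had the highest. The 5.8S total is the denominator of this part and the numerator of the 5.8S share, so an inverse relation between them is partly built in. Counting error alone gives its share a coefficient of variation of 6.85%, against 44.0% observed. Its log2 fold change in sgZ3 against sgC was -0.53 (SE 0.42, 95% interval -1.55 to 0.48, edgeR adjusted p = 0.596).

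**Figure D5:**
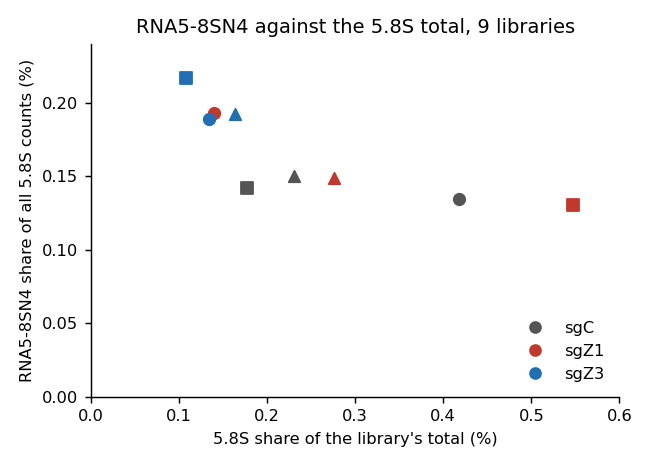
RNA5-8SN4 as a percent of the 5.8S counts (y axis) against the share of all 5.8S entries in the library's counts, in percent (x axis), with colours for groups and a circle, square or triangle for replicate 1, 2 or 3. Libraries with a low 5.8S share, between 0.109% and 0.164%, sit at 0.189% to 0.217%, and the others sit at 0.131% to 0.150%. Both axes contain the 5.8S total, so a fall from left to right is partly built in.

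Genes that make and process the precursor were read from the poly(A) libraries, with edgeR's quasi-likelihood test and Benjamini-Hochberg adjustment over 14732 genes. For RNA polymerase I subunits and its initiation and termination factors, 12 of 21 rose and 1 fell over both guides, where 18.6% of all genes tested rose and 14.6% fell. The median log2 fold change of the list was 0.37, against 0.0078 over all genes. POLR1B, the second-largest subunit, was 86.1, 89.0 and 89.8 CPM in sgC, 119, 135 and 107 in sgZ1 and 139, 132 and 130 in sgZ3. Every library of both guides was above every control, with a log2 fold change of 0.52 (SE 0.086, edgeR adjusted p = 0.00122). POLR1E, a subunit of the polymerase I subcomplex used in initiation, rose by 0.57 (SE 0.075, edgeR adjusted p = 0.000375), and POLR2E and POLR2L, subunits shared by all 3 nuclear polymerases, by 0.49 and 0.84 (SE 0.074 and 0.12, edgeR adjusted p = 0.000812 and 0.000608). The member that fell was TAF1D, part of the promoter selectivity factor, at -0.27 (edgeR adjusted p = 0.038), and in 6 of the 9 fits that left out 1 library 0 members fell.

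Among the small-subunit processome, which makes the early cuts in the 5′ETS and ITS1, 17 of 25 members rose and 0 fell over both guides (edgeR). Of all genes tested 18.6% rose and 14.6% fell. The median was 0.40, against 0.0078 over all genes. DHX37, a helicase of the processome, was 42.5, 41.9 and 44.4 CPM in sgC, 76.0, 79.3 and 89.6 in sgZ1 and 62.7, 70.4 and 72.3 in sgZ3, a log2 fold change of 0.80 (SE 0.088, edgeR adjusted p = 0.000174). RRP9, which binds the U3 small nucleolar RNA, rose by 0.93 and UTP18 by 0.64 (edgeR adjusted p = 0.000222 and 0.00108). PWP2 was 0.487, 0.321 and 0.554 CPM in sgC, 6.52, 6.88 and 7.34 in sgZ1 and 0.609, 1.08 and 1.01 in sgZ3. The groups did not overlap and sgZ1 was highest, with log2 fold changes against sgC of 3.89 in sgZ1 (SE 0.24, edgeR adjusted p = 3.16e-07) and 0.99 in sgZ3 (SE 0.29, edgeR adjusted p = 0.021). The sgZ3 call was lost without sgC replicate 1 or 2 or sgZ3 replicate 2 (adjusted p = 0.0544 to 0.0878). The level of PWP2 is uncertain, because a near-identical second gene is annotated and the counting could split their reads.

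For maturation of 5.8S and of the 28S side of the precursor, 25 of 39 tested genes rose and 0 fell over both guides (edgeR). Of all genes tested 18.6% rose and 14.6% fell. The median of the list was 0.37, against 0.0078 over all genes. BOP1 and PES1 belong to the complex needed for processing ITS2, the spacer that follows 5.8S. BOP1 was 161, 189 and 159 CPM in sgC, 307, 333 and 341 in sgZ1 and 280, 269 and 213 in sgZ3, a log2 fold change of 0.77 (SE 0.10, edgeR adjusted p = 0.000353). PES1 rose by 0.67 (edgeR adjusted p = 0.000222), EXOSC2, a subunit of the exosome that trims the 3′ end of 5.8S, by 0.65 (edgeR adjusted p = 0.00084) and RPP25, a protein of the RNase MRP and RNase P particles, by 0.82 (edgeR adjusted p = 0.000777).

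By guide, the polymerase I list had 10 members higher and 1 lower in sgZ1, where 15.5% of all genes rose and 10.3% fell, and 10 higher and 1 lower in sgZ3, where 19.2% rose and 17.1% fell. The member lower in sgZ1 was TAF1D and the member lower in sgZ3 was UBTF, the factor that holds ribosomal gene chromatin open. With 1 library left out, 0 members were lower in 7 of 9 fits for sgZ1 and in 6 of 9 for sgZ3. The processome list had 17 and 16 members higher and 0 lower in sgZ1 and sgZ3, and the 5.8S list 20 and 19 higher and 0 lower. In sgZ1 the processome count was 10 without sgC replicate 1 and 11 without sgC replicate 3. The 5.8S count was 10 without either of these and 13 without sgC replicate 2. Of all genes, 9.5%, 11.5% and 10.5% rose in sgZ1 without sgC replicates 1, 2 and 3. In sgZ3 without sgC replicate 1 the counts were 10 for the processome, 12 for 5.8S maturation and 5 for polymerase I. Of all genes, 11.7% rose in sgZ3 in the same fit. The polymerase I count in sgZ3 was also 5 without sgC replicate 3 or sgZ3 replicate 1 and 6 without sgZ3 replicate 2. In these fits 11.8%, 12.5% and 12.2% of all genes rose, in that order. Without sgZ3 replicate 3, 3 processome members were lower in sgZ3 and 1 over both guides, where 22.7% and 20.2% of all genes fell. Both guides are compared with the same 3 controls. Without sgC replicate 1 the members higher over both guides were 7 for polymerase I and 14 for 5.8S maturation, where 8.96% of all genes rose. Without sgC replicate 3 those for 5.8S maturation were 15, where 9.54% of all genes rose. Without sgZ1 replicate 2 and sgZ3 replicate 3, the poly(A) libraries with the high mesenchymal sums, they were 13 for polymerase I, 19 for the processome and 29 for 5.8S maturation, with 3, 1 and 0 lower. In that fit 23.1% of all genes tested rose and 26.6% fell. Scaling by library totals alone shifted the median of all genes by -0.10 for both guides and -0.15 for sgZ3, and the part of the calls that were higher went from 56% to 36.6% for both guides. Under that scaling the members higher in sgZ3 were 6 for polymerase I and 12 for 5.8S maturation. Those lower were 3 for polymerase I and 1 for the processome, where 11.8% of all genes rose and 28.1% fell. The higher mRNA levels of these lists and the ribosomal RNA shares come from separate libraries, and a relation between them was not tested.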

How the data were processed

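For ribosomal RNA the authors deposited estimated counts, which need not be whole, of 20 entries in 9 libraries. For poly(A) RNA they deposited whole-number counts of 47021 genes in 9 libraries. Neither table is normalized. Sample titles gave the groups and the replicate numbers. HTSeq, DESeq2, STAR 2.5.2b, SAMtools 1.9 and the build GRCh38 (hg38) are listed in the submitters' processing notes without their roles. The division of reads shared by near-identical copies is not given in the sources used here, nor is the strand setting.

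Shares were computed as percentages of each library's total over the 20 entries. Sums over a class and ratios are given without a test. Estimated counts were rounded to whole numbers and tested per entry in R 4.3.3 with edgeR 4.0.16 (quasi-likelihood, all 9 libraries, group as the only term, library size equal to the total, no further scaling, 1 common dispersion), with Benjamini-Hochberg adjustment over the 20 entries and a threshold of 0.05. Poly(A) counts, with totals of 16044224 to 24535642, were tested with edgeR after TMM scaling and filterByExpr, robustly, over 14732 genes. CPM values use TMM-scaled library sizes. Both steps were tested on simulated data. Intervals are 95% intervals from the fitted standard errors.

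Alternatives were limma 3.58.1 on log2 shares with pseudocounts of 0.5 and 50 counts, DESeq2 1.42.0, TMM or the 18S and 28S total as scale, a mean of at least 1000 counts, a threshold of 0.01, exact permutation, a replicate block, fits restricted to the groups compared, leaving out each library, and for poly(A) genes other scalings and no filter. Leaving out 2 ribosomal RNA libraries together was chosen after seeing the data.

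Coordinates and lengths came from RefSeq (GRCh38.p14), and the 5.8S sequence from GENCODE 29, matched by coordinates. All 10 entries are described. From each poly(A) list up to 4 members with the smallest adjusted p over both guides are named, besides ZNF692. TAF1D and UBTF, as the members that fell, were named after their values were seen. The entries and lists were chosen with earlier results of these data known.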

Additional observations from a re-analysis of the deposited data

How the results depend on the processing

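In each comparison 0 of the 10 entries were called under every alternative that was run, leaving out each library included, and the lowest adjusted p was 0.0684 for a 45S entry and 0.0678 for a 5.8S entry. The replicate block also left 0 called, and it gave 5488, 4202 and 5974 poly(A) genes for both guides, sgZ1 and sgZ3 against 4885, 3807 and 5355 without it. Whether replicate numbers pair the libraries was not settled. In ribosomal RNA, deviations of same-numbered libraries correlated at -0.946 to 0.972 and those of different-numbered libraries at -0.975 to 0.967. Both kinds of pair reached both extremes, so these values cannot decide it. In poly(A) RNA the ranges were -0.121 to 0.249 (median 0.040) and -0.259 to 0.202 (median -0.012), in the same order.

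The 45S log2 difference moved most with its denominator. Per 18S and 28S count it was -0.020 (both guides), -0.039 (sgZ1) and 0.039 (sgZ3 against sgZ1). Per 28S count it was -0.026, -0.045, -0.0075 (sgZ3) and 0.037. Per 18S count it was 0.011 (both guides), 0.033 (sgZ3) and 0.044 (sgZ3 against sgZ1). The ratio to 18S and 28S together almost restates the 45S share, so its larger differences are not a separate result. No alternative scale moved a 5.8S difference beyond the spread between replicates. That spread was 0.49 to 0.83 for 5.8S and 0.0018 to 0.0035 for 45S (pooled SD of log2 shares). A change of denominator shifts the log2 differences of 45S and 5.8S by the same amount. The 5.8S differences are thus not shown to depend less on the scale. Leaving out a library, the 45S difference ranged from -0.0062 to -0.0019 (both guides), -0.012 to -0.0081 (sgZ1), -3.47e-05 to 0.0043 (sgZ3) and 0.011 to 0.014 (sgZ3 against sgZ1). The 5.8S difference ranged from -0.69 to -0.074, -0.39 to 0.59, -1.21 to -0.60 and -1.54 to -0.55 in the same order.

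Signs of entry values reversed as follows, near 0 for 45S entries but not for 5.8S entries. With TMM the values were 0.0077 (RNA45SN5), 0.017 (RNA45SN1) and 0.012 (RNA45SN2) for both guides, 0.012 for RNA45SN2 in sgZ1 and in sgZ3, 0.0037 for RNA45SN3 in sgZ3, and 0.0016 (RNA45SN4) and 0.00015 (RNA45SN2) between guides. With DESeq2 they were 0.0053, 0.014 and 0.0090 for the same 3 entries over both guides, and 0.011 and 0.0072 for RNA45SN2 in sgZ1 and sgZ3. With the 18S and 28S total they were -0.00013 and -0.0078 for RNA45SN4 (both guides, sgZ1), and 0.015 (RNA45SN4) and 0.013 (RNA45SN2) between guides. With all libraries the 5.8S entries were at -0.40 over both guides (RNA5-8SN4 -0.14) and at 0.22 to 0.26 in sgZ1. Without sgC replicate 1 the 5.8S entries turned positive over both guides. In sgZ1 they turned negative without sgZ1 replicate 2 and, RNA5-8SN4 excepted, without sgC replicate 2. Over all fits that left out libraries, including sgZ1 replicate 2 with sgZ3 replicate 3, both-guides values ran from -0.79 to 0.033 (RNA5-8SN5), 0.034 (RNA5-8SN1), 0.031 (RNA5-8SN2) and 0.033 (RNA5-8SN3) and from -0.43 to 0.24 (RNA5-8SN4). In sgZ1 they ran from -0.41 (RNA5-8SN1 -0.40) to 0.65, and for RNA5-8SN4 from -0.19 to 0.64. The 45S entries that reversed ran from -0.011 to 0.0019 (RNA45SN1) and -0.022 to 0.0050 (RNA45SN2) over both guides, from -0.016 to 0.012 for RNA45SN2 in sgZ1, and between guides from -0.027 to 0.0021 (RNA45SN4), -0.022 to 0.0017 (RNA45SN2) and -0.0084 to 0.016 (RNA45SN3). The cause of these reversals was not tested.

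Without poly(A) libraries sgZ1 replicate 2 and sgZ3 replicate 3 7409, 5894 and 8246 genes were called. Leaving out 1 library gave 2201 to 6337, 2129 to 4855 and 3080 to 6796. Depth did not limit the 45S or the abundant 5.8S entries, since counting error was far below the spread between libraries. RNA5-8SN4 rests on 123.4 to 421.3 counts.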

Other observations

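The only 5S entry of the table, RNA5S9, had 0 to 13 estimated counts in a library. The 5S rRNA is transcribed by RNA polymerase III from its own genes and is not part of the 45S precursor.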
